A study of Felis catus with 15 samples.

Results

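The 9 genes described here encode parts of the anchoring machinery of basal epithelial cells, or proteins that mark those cells: TP63, TRIM29, ITGA3, ITGA6, ITGB4, LAMA3, LAMB3, COL17A1 and DST. They were taken by symbol, and all 9 were found among the 38995 genes counted in cat (Felis catus) epididymal corpus, the part of the duct between head and tail. RNA-seq libraries were made from 3 groups of 5: corpus explants cultured with extracellular vesicles (culture+EVs), explants cultured alone (culture) and uncultured tissue (fresh). Per the series text the vesicles, small membrane-bound particles shed by cells, came from the caput, or head of the duct, and the stated question was their effect on the explants. The labels code the cultures D3 and the fresh tissue D0 and do not explain the code. Neither the age of the animals nor the make-up of the culture medium is given, and nothing says whether libraries of a group came from separate cats, so p-values measure the spread between these libraries, which may be technical.

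Basal cells lie flat against the basement membrane of the epididymal duct, below the absorptive and secretory principal cells that line the lumen. In stratified and pseudostratified epithelia such cells are held down by hemidesmosomes, in which the integrin pair made from ITGA6 and ITGB4 and the transmembrane collagen COL17A1 grip a laminin outside the cell, while plectin and dystonin (DST) tie them to keratin filaments inside. The products of LAMA3 and LAMB3 are chains of that laminin. The transcription factor p63, encoded by TP63, keeps the basal state in many epithelia and is known there to act on several of these adhesion genes.

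Total counts were 17308832 to 27420218 per library in culture+EVs, 19308190 to 25454399 in culture and 17751507 to 24841100 in fresh tissue. One library, culture 3, stood apart. Its 13 protein genes of the mitochondrial genome took 0.179% of counts, against 6.23% to 7.48% in the other 4 cultures. Some results that rest on culture 3 are therefore also given without it. For others only the level in culture 3 is given. Of the basal markers listed for checking the tissue, 9 of 10 were in the table, and none was at 0 in all libraries of a group. Levels below are CPM, the depth-normalised count of a gene, with library sizes scaled by TMM. They are not corrected for transcript length, so they are compared between libraries and not between genes.

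In cultured explants 8 of the 9 genes were higher than in fresh tissue, with or without vesicles, and DST was lower. In culture+EVs against fresh tissue the 8 called higher compare with 27.4% of all 18038 tested genes, and the 1 called lower with 25.5%. In culture against fresh tissue the same counts, 8 higher and 1 lower, stand beside 28.7% and 25.6% of all genes. In either direction 52.9% of all genes were called in culture+EVs and 54.3% in culture. The median log2 fold change of the 9 was 2.80 in culture+EVs and 2.89 in culture, against 0.01 and 0.04 over all tested genes. Both comparisons use the same 5 fresh libraries. Between culture+EVs and culture 0 of the 9 were called. In these pieces of whole tissue, the cells that made the RNA are not known. More cells with these transcripts, more RNA per cell and less RNA from other cells cannot be told apart.

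**Figure D1:**
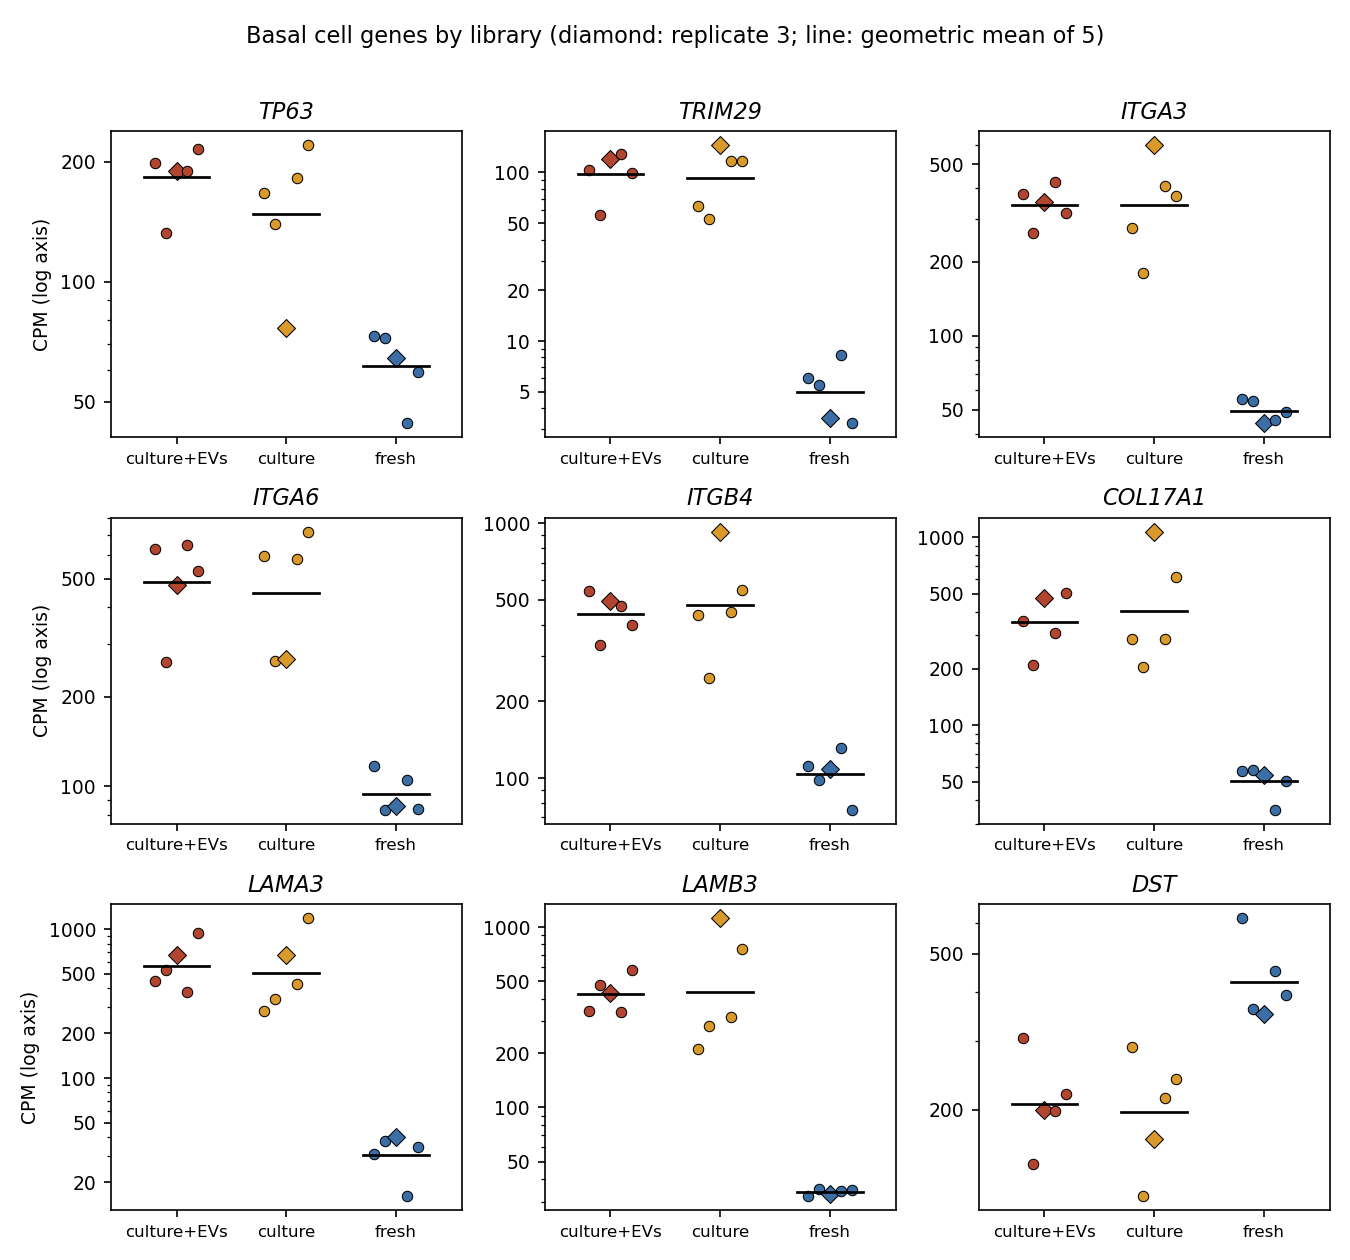
Levels of the 9 genes in each library (CPM, log axis), with the geometric mean of the 5 libraries of a group as a line and replicate 3 as a diamond. For 8 genes every cultured library lies above every fresh one, and for DST every cultured library lies below, while in culture the replicate 3 diamond is the highest point for 5 genes and the lowest for TP63.

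TP63, the gene of the transcription factor itself (gene 101095124), had 198, 133, 189, 189.8 and 216 CPM in culture+EVs, 166.5, 139.6, 76.4, 182.5 and 219.9 CPM in culture, and 73.2, 72.1, 64.4, 44.2 and 59.3 CPM in fresh tissue, replicates 1 to 5 in turn. The cultured libraries were all above the fresh ones, though culture 3 exceeded fresh 1 by little. Its mean was 185 ± 31.2 CPM in culture+EVs, 157 ± 53.6 in culture and 62.6 ± 11.8 in fresh tissue (SD, n = 5 each). TP63 rose 2.96-fold in culture+EVs (log2 1.56 ± 0.24, SE; edgeR quasi-likelihood adjusted p = 5.43e-05) and 2.50-fold in culture (1.32 ± 0.23, adjusted p = 0.000224), the smallest rise of the 8. Counts per gene do not separate the isoforms with and without the transactivation domain.

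TRIM29 encodes a tripartite-motif protein found in the basal layer of several epithelia (gene 101098485). It stood at 103, 56.1, 121, 129 and 98.8 CPM in culture+EVs, at 63.5, 53.0, 145, 117.5 and 117 CPM in culture, and at 6.01, 5.46, 3.52, 8.25 and 3.25 CPM in fresh tissue. Even the lowest cultured library, culture 2, was several times the highest fresh one, fresh 4. The rise was 19.2-fold in culture+EVs (log2 4.26 ± 0.36, adjusted p = 1.69e-07) and 18.7-fold in culture (4.23 ± 0.35, adjusted p = 1.81e-07).

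Among the integrins, ITGA3, whose product pairs with the beta chain encoded by ITGB1 and binds laminin outside hemidesmosomes (gene 101093156), reached 378, 262.5, 352, 423 and 315 CPM in culture+EVs, 274, 181, 598, 409.6 and 371.5 CPM in culture, and 55.1, 54.3, 44.0, 45.6 and 49.1 CPM in fresh tissue. Fresh libraries were close together, and the cultured ones were spread, with culture 2 lowest and culture 3 highest. ITGA3 rose 6.97-fold in culture+EVs (2.80 ± 0.26, adjusted p = 4.30e-07) and 7.39-fold in culture (2.89 ± 0.26, adjusted p = 3.41e-07). Without culture 3 its log2 value in culture was 2.65. ITGA6, the alpha chain of the hemidesmosome (gene 101092454), had 630.5, 262, 475, 648 and 529 CPM in culture+EVs, 596, 263.5, 268, 583 and 719 CPM in culture, and 117, 83.2, 86.0, 105 and 83.9 CPM in fresh tissue. Both replicate 2 cultures and culture 3 were well below the other 7 cultured libraries, and all 10 were above fresh tissue. Its rise was 5.36-fold in culture+EVs (2.42 ± 0.31, adjusted p = 1.03e-05) and 5.11-fold in culture (2.35 ± 0.31, adjusted p = 1.30e-05).

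ITGB4 encodes the beta chain, whose long cytoplasmic tail binds plectin (gene 101080415). Its levels were 541, 334, 495, 471 and 399 CPM in culture+EVs, 436, 247, 927, 447 and 549 CPM in culture, and 111, 98.5, 108.5, 132 and 75.0 CPM in fresh tissue. The groups of cultured and fresh libraries did not overlap, and culture 3 was far above the other cultures. ITGB4 rose 4.27-fold in culture+EVs (2.09 ± 0.28, adjusted p = 1.77e-05) and 4.96-fold in culture (2.31 ± 0.28, adjusted p = 7.37e-06). Without culture 3 its log2 value in culture was 2.01. COL17A1, the transmembrane collagen that reaches from the hemidesmosome to the laminin (gene 101096849), had 359, 209.7, 477, 310.5 and 504 CPM in culture+EVs, 288, 203, 1069, 287.5 and 610.4 CPM in culture, and 57.1, 57.9, 54.3, 35.5 and 50.5 CPM in fresh tissue. Again replicate 2 was the lowest of both cultures and culture 3 the highest of all. It rose 7.29-fold in culture+EVs (2.87 ± 0.41, adjusted p = 3.21e-05) and 9.63-fold in culture (3.27 ± 0.42, adjusted p = 1.08e-05). The log2 value for culture was 2.77 without culture 3, and 2.67 under limma-voom with quality weights, a 1.52-fold smaller change.

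The laminin chains had larger fold changes than the integrins that bind them, a difference that was not itself tested. LAMA3, the alpha chain (gene 101100161), had 446, 532.5, 668, 380.0 and 944 CPM in culture+EVs, 282, 338, 674, 428 and 1189 CPM in culture, and 30.8, 37.7, 40.0, 16.1 and 34.2 CPM in fresh tissue. Replicate 5 was highest in both cultures, and fresh 4 was lowest of all. LAMA3 rose 18.7-fold in culture+EVs (4.22 ± 0.43, adjusted p = 1.08e-06) and 18.3-fold in culture (4.2 ± 0.43, adjusted p = 1.17e-06). LAMB3, the beta chain (gene 101088641), had 343, 478.5, 433, 338 and 578 CPM in culture+EVs, 210.1, 281, 1122, 316 and 755 CPM in culture, and 32.1, 35.2, 33.0, 34.5 and 34.5 CPM in fresh tissue. The 5 fresh values were the tightest of any member (SD 1.27 around 33.8 CPM), whereas culture alone spread more than 5-fold. LAMB3 rose 12.8-fold in culture+EVs (3.68 ± 0.40, adjusted p = 2.45e-06) and 15.9-fold in culture (3.99 ± 0.41, adjusted p = 1.36e-06), with a log2 value of 3.54 without culture 3 and 3.24 under limma-voom, 1.68-fold smaller.

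DST went the other way. Its gene yields an epithelial isoform, the plaque protein that binds keratin in hemidesmosomes, as well as longer isoforms of muscle and nerve, and the counts do not tell them apart (gene 101098224). It had 305, 145, 199.9, 198 and 219 CPM in culture+EVs, 289, 120.0, 168, 214 and 239 CPM in culture, and 618, 361, 352, 451 and 392 CPM in fresh tissue. Every cultured library was below every fresh one, and replicate 1 was highest in all 3 groups. DST fell 2.04-fold in culture+EVs (-1.03 ± 0.24, adjusted p = 0.00233) and 2.11-fold in culture (-1.08 ± 0.24, adjusted p = 0.00163). The summed CPM of 6 Schwann cell and nerve markers was 38.1 to 97.9 in culture+EVs, 45.0 to 127 in culture and 58.9 to 115 in fresh tissue, with NCAM1 lower by 2.06 (log2, both comparisons) and PMP22 higher by 1.5 and 1.48, and 3 of the 5 tested not called. Smooth muscle markers, also 6, summed to 626 to 3777 CPM in culture+EVs, 1082 to 3721 in culture and 611 to 1548 in fresh tissue, with 2 higher (TAGLN and SMTN) and 0 lower in both comparisons. All tested genes gave 27.4% higher and 25.5% lower in culture+EVs, and 28.7% and 25.6% in culture. The part of these nerve and muscle markers in the DST result was not tested.

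**Figure D2:**
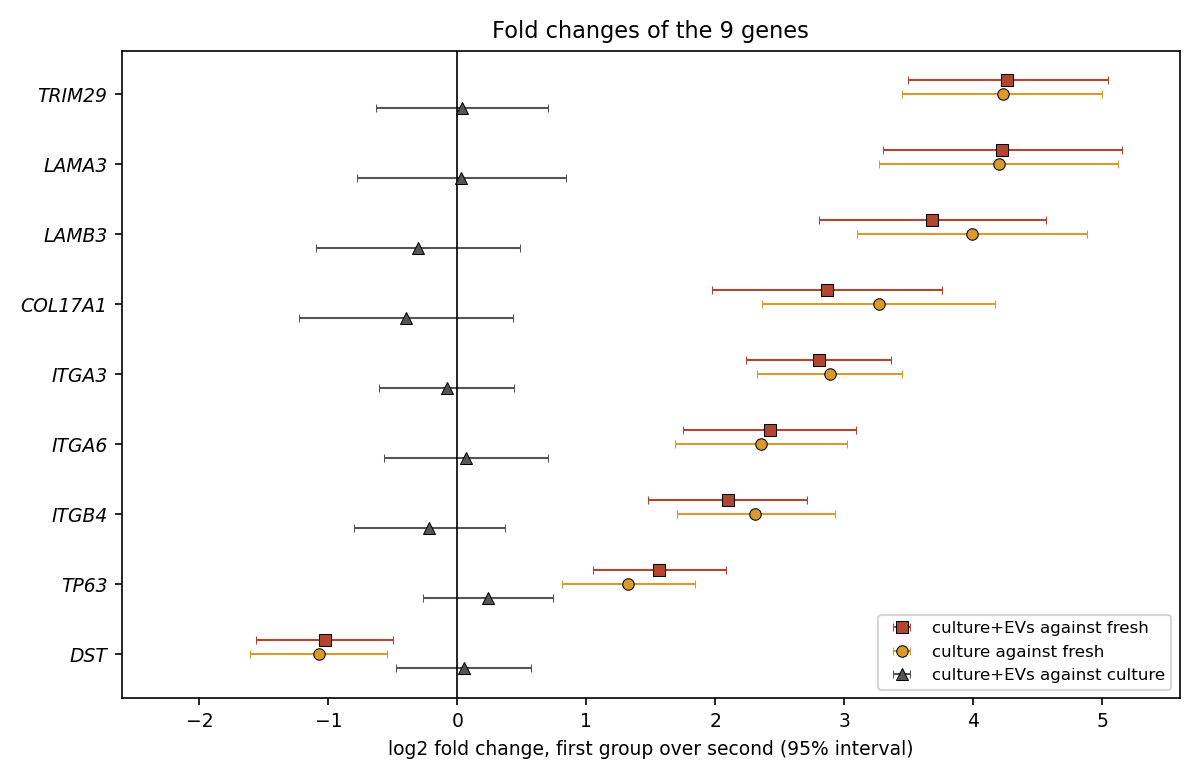
Log2 fold changes of the 9 genes in the 3 comparisons, each with its 95% interval, first group over second. The intervals of both comparisons with fresh tissue lie above 0 for 8 genes and below 0 for DST, and those of culture+EVs against culture all span 0.

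In every one of the 9 genes the order of the groups was the same in one respect: the cultures neighboured each other and did not differ beyond their spread, and fresh tissue stood apart from both. In culture+EVs against fresh tissue, and in culture against fresh tissue, the libraries of 8 genes lay wholly above and those of 1 wholly below. Over all tested genes 25.3% lay wholly above and 24.0% wholly below in culture+EVs, and 20.2% and 20.4% in culture.

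The comparison of culture+EVs with culture addresses what the caput vesicles added. The largest difference among the 9 was that of COL17A1, 0.757 times its level in culture (log2 -0.40 ± 0.38, edgeR adjusted p = 1.0), followed by LAMB3 at -0.31 ± 0.36 and TP63 at 0.24 ± 0.23. TRIM29, ITGA3, ITGA6, LAMA3 and DST were within 0.09 of 0. In turn, the 95% intervals of these genes were -0.634 to 0.705, -0.607 to 0.438, -0.567 to 0.701, -0.781 to 0.84 and -0.477 to 0.574. The intervals ran from -0.26 to 0.74 for TP63 and from -0.81 to 0.37 for ITGB4. They ran from -1.10 to 0.48 for LAMB3 and from -1.23 to 0.43 for COL17A1. Differences within these intervals were not excluded. The intervals come from the fit that did not pair libraries by replicate number. No gene of the 9 had libraries wholly above or below those of culture, as 0.0499% and 0.0333% of all genes did. None of the 18038 genes was called here (0.0%) by edgeR, DESeq2 or limma-voom. At an unadjusted p under 0.05 edgeR had 183 genes, DESeq2 269 and limma-voom 237.

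**Figure D3:**
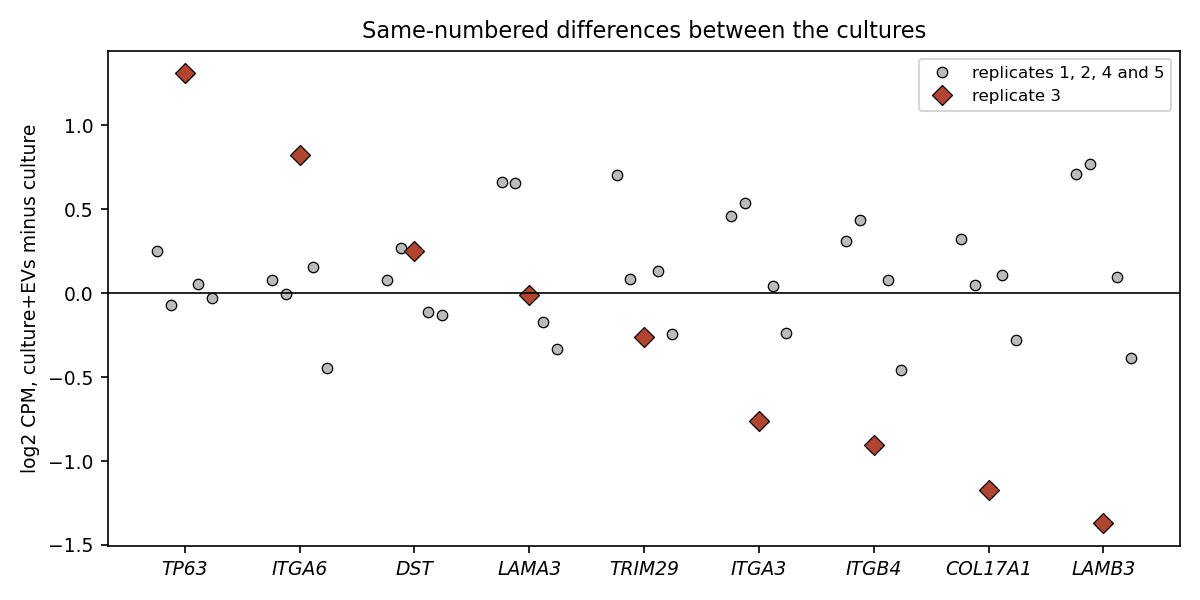
Log2 CPM in culture+EVs minus that in the culture of the same replicate number, for each of the 9 genes, with replicate 3 as a diamond. Replicate 3 gives the highest difference for TP63 (1.31) and ITGA6 (0.83) and the lowest for LAMB3 (-1.37), COL17A1 (-1.17), ITGB4 (-0.91), ITGA3 (-0.76) and TRIM29 (-0.26).

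Between the cultures the same-numbered differences were set apart by replicate 3. In that number LAMB3, COL17A1, ITGB4, ITGA3 and TRIM29 were lower in culture+EVs than in culture, and TP63 and ITGA6 higher. In the other 4 numbers the differences of the 9 genes lay between -0.46 and 0.77. The library behind this was culture 3 rather than its partner: against the mean of the other 4 libraries of its own group, culture+EVs 3 differed by -0.06 to 0.53 (log2) over the 9 genes. Culture 3 had 3.08 times the mean COL17A1 level of the other 4 cultures, 2.87 times that of LAMB3, 2.21 times that of ITGB4, 1.93 times that of ITGA3 and 1.66 times that of TRIM29, but only 0.431 times that of TP63 and 0.496 times that of ITGA6. Without culture 3 the fold change of culture+EVs over culture changed sign in ITGA3 (to 0.16), ITGB4 (0.09), LAMB3 (0.15) and COL17A1 (0.10), and TP63 moved to 0.06. The low mitochondrial share given above belongs to the same library, and its part in these values was not tested.

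Count ratios between 2 genes of the same library cancel the scaling. In a difference between groups they also cancel the gene lengths, but only where both groups use the same isoforms. The counts cannot show whether they do, for DST among others. For 7 such ratios in 3 comparisons, exact permutation tests over libraries were run, with adjustment over the 21 tests (smallest possible p 0.00794). Of these ratios 6 are given here. Between the laminin chains, the count of LAMB3 per LAMA3 fell short of the threshold, at -0.57 in culture+EVs (exact p = 0.0317, adjusted p = 0.0741, and 0.0238 without fresh 3) and -0.37 in culture (exact p = 0.365, adjusted p = 0.59). Without culture 3 the value in culture was -0.60 (exact test, adjusted p = 0.0694).

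DST and COL17A1 moved apart. Per count of COL17A1 there were 0.848, 0.69, 0.419, 0.637 and 0.434 counts of DST in culture+EVs, 1.00, 0.591, 0.157, 0.746 and 0.392 in culture, and 10.8, 6.23, 6.48, 12.7 and 7.76 in fresh tissue. The ratio fell 14.5-fold in culture+EVs and 17.4-fold in culture (exact p = 0.00794, adjusted p = 0.0278 in both). Every cultured library was above every fresh one for COL17A1 and below for DST, so these tests could only return their smallest p. They add no evidence to the changes of these genes given above. On the log2 scale the value in culture was -4.12, and -3.71 without culture 3 (adjusted p = 0.0333). TRIM29 per TP63 rose 6.58-fold in culture+EVs and 7.66-fold in culture (exact p = 0.00794, adjusted p = 0.0278). Its log2 value was 2.65 without culture+EVs 3, 2.63 without culture+EVs 4 and, for culture, 2.54 without culture 3, each with an adjusted p of 0.0556 in exact tests on 1 library fewer.

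Within the integrins the ratios did not pass. ITGB4 per ITGA6, the partners of the hemidesmosomal receptor, differed by -0.27 in culture+EVs (exact p = 0.183, adjusted p = 0.348) and by -0.04 in culture (exact p = 0.992, adjusted p = 0.992) relative to fresh tissue. Culture 3 held 3.46 counts of ITGB4 per count of ITGA6, against 0.731 to 0.937 in the other cultures. Without culture 3 this difference in culture was -0.46 (exact test, adjusted p = 0.0694). ITGA6 per ITGA3 differed by -0.42 in culture+EVs (exact p = 0.0397, adjusted p = 0.0833) and -0.54 in culture (exact p = 0.206, adjusted p = 0.361), the second being -0.15 without culture 3 (adjusted p = 0.529). COL17A1 per ITGB4 differed by 0.72 in culture+EVs (exact p = 0.0317, adjusted p = 0.0741) and 0.81 in culture (exact p = 0.0238, adjusted p = 0.0714), and both passed without fresh 5, at 0.84 and 0.92 (adjusted p = 0.0208). None of the 6 ratios passed between culture+EVs and culture (exact p of 0.619 or more). Without culture 3 all 6 of these differences changed sign. They then lay between -0.27 (ITGA6 per ITGA3) and 0.19 (ITGB4 per ITGA6), and none passed (exact tests, adjusted p of 0.381 or more).

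**Figure D4:**
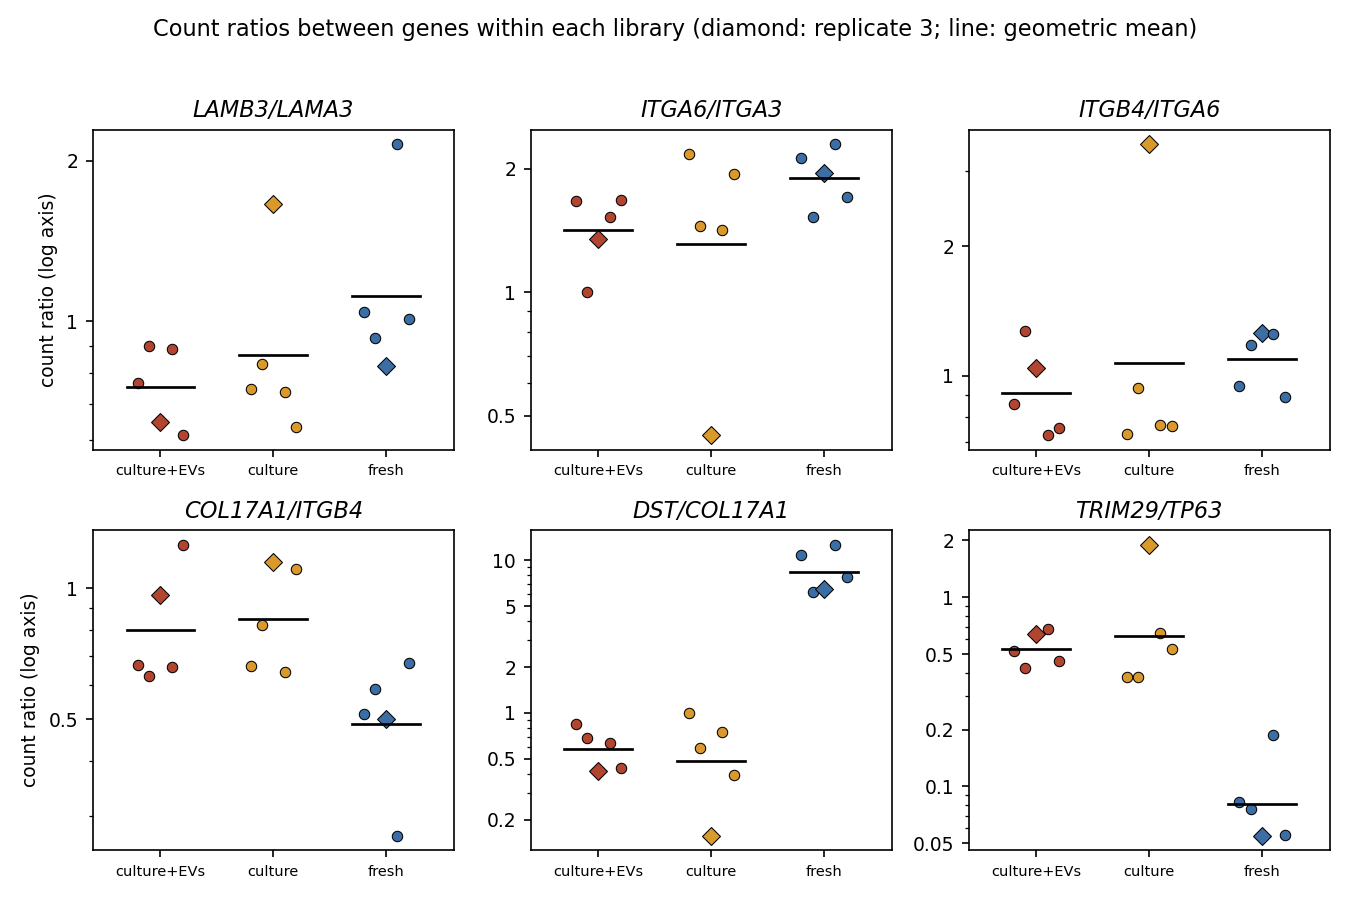
Ratios of counts between pairs of genes in each library (log axis), with geometric means as lines and replicate 3 as a diamond. TRIM29/TP63 lies higher in all cultured libraries than in fresh tissue and DST/COL17A1 lower, and the culture replicate 3 diamond stands far from its group in ITGB4/ITGA6, ITGA6/ITGA3 and LAMB3/LAMA3.

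Other genes of the hemidesmosome and its anchorage mostly rose with the 8. Of 10 listed partners 9 were in the table (KRT14 was not matched). In culture+EVs 8 were called higher and 0 lower (median log2 fold change 1.12), and in culture 9 higher and 0 lower (median 1.58, and 0.97 without culture 3, with 9 called). Over all tested genes 27.4% were higher and 25.5% lower in culture+EVs, and 28.7% and 25.6% in culture. The basal keratin KRT5 rose 2.94 ± 0.41 and 3.09 ± 0.42 on the log2 scale in culture+EVs and culture. Its level was 4198 CPM in culture 3 and 1187 to 2047 in the other cultures. ITGB1, the beta chain shared by many integrins, rose 2.17 ± 0.22 and 2.12 ± 0.22. CD151, a tetraspanin that binds laminin receptors, rose 0.95 ± 0.16 and 1.10 ± 0.17, and NID1, a linker of basement membranes, 1.35 ± 0.24 and 1.49 ± 0.24. CD151 was at 224 CPM in culture 3 and 126 to 133 in the other cultures. FERMT1 (0.93 and 0.76), an activator of integrins, and ERBIN (0.67 and 0.53), which binds ITGB4, rose less, and in culture the FERMT1 call was lost without any one of 6 libraries and the ERBIN call without any one of 7, leaving out culture 5 giving adjusted p = 0.123 for FERMT1 and 0.129 for ERBIN.

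PLEC, the plectin that joins ITGB4 to keratin, rose by 1.12 ± 0.41 in culture+EVs (adjusted p = 0.0332, and 0.0529 to 0.0696 when one of 7 libraries was left out) and by 1.58 ± 0.42 in culture (adjusted p = 0.00491). It had 1492 CPM in culture 3 and 213 to 356 in the other cultures, and its rise was 0.76 without culture 3. COL7A1, the collagen of anchoring fibrils, rose by 1.73 ± 0.52 in culture (adjusted p = 0.0111) and had 0.99 ± 0.51 in culture+EVs (adjusted p = 0.116). Its level was 1834 CPM in culture 3 and 206 to 299 in the other 4, and without culture 3 the rise was 0.58 in culture (adjusted p = 0.0187) and 1.00 in culture+EVs, where it was then called (adjusted p = 0.000304).

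**Figure D5:**
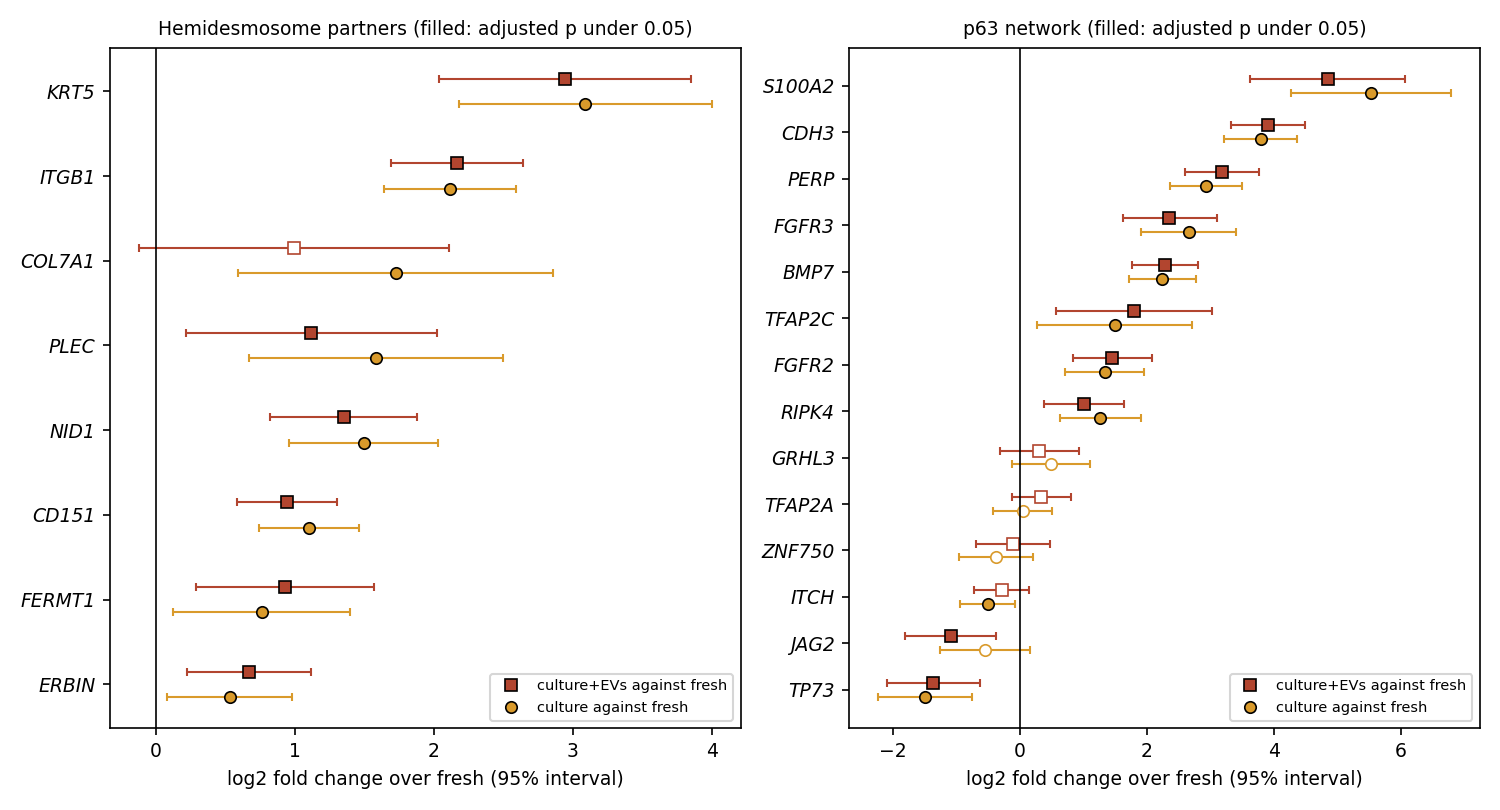
Log2 fold changes over fresh tissue of 8 hemidesmosome partners and 14 genes of the p63 network, each with its 95% interval, squares for culture+EVs and circles for culture, filled where the adjusted p is under 0.05. KRT5 (2.94 and 3.09) lies highest of the partners shown, and in the p63 network TP73 lies below 0 in both comparisons.

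The p63 network, a list of known targets, regulators and family members of TP63, was mixed. Of 17 genes 16 were tested (DLX3 was too low), and in each of the comparisons with fresh tissue 9 were called higher and 2 lower (median 1.24 in culture+EVs and 1.31 in culture). Over all tested genes 27.4% and 28.7% were higher, and 25.5% and 25.6% lower. The share of the list called higher was thus above, and the share called lower below, that of all genes, which was not tested. CDH3, the P-cadherin of basal cells, rose by 3.91 ± 0.27 and 3.79 ± 0.27 in culture+EVs and culture, and PERP, a desmosome protein, by 3.19 ± 0.26 and 2.93 ± 0.26. S100A2, a calcium-binding protein of basal keratinocytes, rose by 4.85 ± 0.56 and 5.53 ± 0.58, and the value in culture was 4.74 without culture 3. The fibroblast growth factor receptor genes FGFR3 and FGFR2 rose by 2.36 ± 0.34 and 1.46 ± 0.28 in culture+EVs, and by 2.66 ± 0.34 and 1.34 ± 0.28 in culture. BMP7, which encodes a bone morphogenetic protein, rose by 2.29 ± 0.24 and 2.24 ± 0.24. The kinase gene RIPK4 rose by 1.02 ± 0.29 and 1.27 ± 0.29.

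TP73, a relative of TP63, fell by 1.36 and 1.49 on the log2 scale (SE 0.34 each, adjusted p = 0.00318 and 0.00163) to 0.905 to 2.42 CPM in culture+EVs and 0.600 to 2.01 in culture, against 2.99 to 4.70 in fresh tissue. JAG2, a Notch ligand, fell by 1.09 in culture+EVs (SE 0.33, adjusted p = 0.0114) and had -0.54 ± 0.33 in culture (adjusted p = 0.172), where culture 3 stood at 56.0 CPM and the others at 12.7 to 21.3. Without culture 3 the JAG2 value in culture was -1.04 (adjusted p = 0.000739). ITCH, a ubiquitin ligase that acts on p63, fell by 0.50 in culture (SE 0.20, adjusted p = 0.0435, and over 0.05 without any one of 6 libraries). It had -0.28 ± 0.20 in culture+EVs (adjusted p = 0.246, and 0.00244 without culture 3). Its level was 41.8 CPM in culture 3 and 98.1 to 120 in the other cultures. The epidermal regulators ZNF750, GRHL3 and TFAP2A were not called in either comparison, with values from -0.38 to 0.50. TFAP2C (1.80 and 1.5) was called in both, at 0.346 to 4.40 CPM in fresh tissue, and its log2 values were 2.76 and 2.45 without fresh 3. In culture its call was lost without any one of 5 libraries, among them culture 3 (adjusted p = 0.0598).

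Laminin chains outside the LAMA3 trimer were called higher in 4 of 8 and lower in 2 in culture+EVs, and higher in 4 and lower in 1 in culture (medians 0.51 and 0.62). Over all tested genes 27.4% were higher and 25.5% lower in culture+EVs, and 28.7% and 25.6% in culture. The share of these laminins that was lower is thus near that of all genes in culture+EVs and below it in culture. The share that was higher is above that of all genes in both. These shares were not tested. LAMC1 (2.1 and 2.00) and LAMB1 (1.86 and 2.05), chains of many basement membranes, rose, and LAMA2, the alpha chain of muscle and peripheral nerve, fell by 2.53 and 2.38. Of 11 other integrin and laminin receptor genes 7 were higher and 0 lower in culture+EVs, and 6 and 0 in culture (medians 1.24 and 1.11). ITGA2, a collagen receptor chain, rose most, by 6.08 ± 0.36 and 5.64 ± 0.36, and had 311 to 510.4 CPM in culture+EVs, 193 to 483 in culture and 2.77 to 9.42 in fresh tissue. ITGB6, an epithelial chain seen in wounds, rose by 3.73 ± 0.28 and 3.82 ± 0.28. Between culture+EVs and culture none of the genes of these 4 lists was called.

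Markers of the other cells of the tissue moved beside the 9. All 9 basal markers in the table, 4 of which belong to the 9 genes, were called higher in both comparisons. General epithelial markers were called higher in 3 of 9 in culture+EVs and 4 of 9 in culture and lower in none (medians -0.04 and 0.28), where all tested genes gave 27.4% and 28.7% higher, so the share in culture+EVs is near that of all genes. Without culture 3 the counts were 4 higher and 1 lower in culture+EVs and 3 higher and 1 lower in culture (median -0.10 in culture). Their summed levels were 2117 to 4211 CPM in culture+EVs, 2055 to 4841 in culture and 1935 to 2524 in fresh tissue. Principal cell markers fell in 7 of 7 in both comparisons, to summed levels of 2088 to 3416 CPM in culture+EVs and 968 to 3183 in culture, against 17940 to 21880 in fresh tissue. Clear cell markers split, 2 higher and 2 lower of 6, at 95.2 to 194 CPM in culture+EVs, 83.7 to 206 in culture and 224 to 424 in fresh tissue. All tested genes gave 25.5% and 25.6% lower, so these clear cell shares are near those of all genes. In culture the highest general epithelial sum and the lowest principal and clear cell sums were those of culture 3.

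Endothelial markers, from cells that also make ITGA6, were higher in 3 of 6 in both comparisons. Not all of these calls held when single libraries were left out. The endothelial markers summed to 327 to 734 CPM in culture+EVs, 402 to 606.5 in culture and 241 to 317 in fresh tissue. Fibroblast markers were higher in 2 of 5 (701 to 6311 CPM, 926 to 9048 and 438.5 to 1532 in culture+EVs, culture and fresh tissue). Macrophage markers were higher in 2 of 5 and lower in 1 in culture+EVs, and higher in 2 in culture (38.3 to 69.8 CPM, 54.5 to 73.1 and 16.7 to 34.6). Of all tested genes 27.4% were higher and 25.5% lower in culture+EVs, and 28.7% and 25.6% in culture. The counts of these short lists were not tested against those shares. No marker of these lists was at 0 in all libraries of a group. The part of such shifts in the levels of the 9 genes was not tested.

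By the root mean square difference of centred log2 CPM over the 15 libraries, genes among the 3 most like TP63 of 12681 searched were LRCH1 (0.233) and IFNGR1 (0.241). Of the 9 the nearest to TP63 was ITGA6 (0.537). For COL17A1 the most alike were ANKRD9 (0.374), YPEL4 (0.395) and NECTIN1 (0.412), and among the 9 ITGA3 (0.409). ANKRD9 had 10.4 to 13.7 CPM in culture+EVs, 34.1 in culture 3 and 8.50 to 16.3 in the other cultures, and 1.70 to 2.90 in fresh tissue. The libraries share a tissue and a culture step, and the measure says nothing of control.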

How the data were processed

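The authors deposited raw counts per gene, with no scaling, as 1 table of 38995 genes and 15 libraries. Per the labels' protocols, the TruSeq Stranded mRNA kit was used on Qiagen-extracted RNA. StringTie 2.1.3b, Bowtie2 2.3.4.1, HISAT2 2.1.0 and Trimmomatic 0.38 are listed, with no roles, per the submitters' processing notes. For the genome build, the annotation and the strand setting, the sources used here give nothing. Names came from RefSeq's genes for F.catus_Fca126_mat1.0, which held all 38995 identifiers. No coordinates or sequences were used.

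Genes were filtered with filterByExpr (minimum count 10, total 15), which left 18038. Counts were scaled by TMM and fitted with edgeR 4.0.16 (R 4.3.3, quasi-likelihood, group as the only term, all 15 libraries, 12 residual degrees of freedom). A gene was called at an adjusted p under 0.05 (Benjamini-Hochberg over all tested genes, 2-sided). SE is the log2 fold change over the square root of F, and 95% intervals use 12 degrees of freedom. Ratios were tested by exact 2-sided permutation with 0.5 added to each count. The edgeR fit was also run on simulated counts with far fewer changed genes than were called here, and no result above rests on that run.

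The genes, lists and tests were chosen with earlier results of these data known, and all 9 genes are named whatever their values. Any gene of the hemidesmosome partner and p63 network lists could be named, beside the count for its whole list. Of each other list at most the 2 largest called changes per comparison could be named, which was done for the laminin, integrin, nerve and smooth muscle lists, and TAGLN, SMTN, NCAM1 and PMP22 are all the called markers of their lists. Likeness to TP63 and COL17A1 was searched over genes that had their own symbol and averaged at least 1 log2 CPM, for the 3 nearest. Some items are not reported here. Alternatives were DESeq2 1.42.0, limma-voom (limma 3.58.1), relative log expression scaling, other filters, the replicate number as a block, and leaving out each library.

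Replicate numbers recur in each group. Deviations from the group means of same-numbered libraries correlated at 0.242 to 0.362 between culture+EVs and fresh tissue and 0.181 to 0.602 between the cultures. By the rule that every number exceed 0.1, the numbers pair these libraries, but the values printed come from fits and tests without the pairing, and the block is an alternative. Culture and fresh tissue did not meet the rule, with 0.0326 for number 3 and 0.198 to 0.344 for the others.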

Additional observations from a re-analysis of the deposited data

Results flagged for a closer look

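Of 48 sets of 5 libraries (9 genes and 7 ratios in 3 groups), 7 held a library far from the other 4, where chance gives about 1 in 20. In log2 CPM these were TP63 in culture+EVs 2 (7.05, the others 7.57 to 7.75), LAMA3 in fresh 4 (4.01, the others 4.95 to 5.33) and COL17A1 in fresh 4 (5.15, the others 5.66 to 5.86). In log2 ratios, 3 lay in culture 3: ITGB4 per ITGA6 at 1.79 (the others -0.45 to -0.09), ITGA6 per ITGA3 at -1.16 (0.51 to 1.12) and LAMB3 per LAMA3 at 0.73 (-0.66 to -0.27). The last was LAMB3 per LAMA3 in fresh 4, at 1.10 (-0.28 to 0.06).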

How the results depend on the processing

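All 9 genes kept their direction and call against fresh tissue under the 21 alternatives, and none was called between culture+EVs and culture. Leaving out each library gave log2 values of 1.46 to 1.65 for TP63 in culture+EVs and 1.17 to 1.51 in culture, and -1.21 to -0.86 and -1.23 to -0.91 for DST. The counts of called genes stayed within 1.5 times: 9549 genes in culture+EVs against fresh tissue ranged from 8833 without fresh 3 to 11789 under limma-voom, and 9786 in culture from 9039 without fresh 3 to 11090 without culture 3. With the replicate number as a block, 10283, 10438 and 0 genes were called in culture+EVs against fresh tissue, culture against fresh tissue and between the cultures. The block changed no call among the 9 genes, and in culture against fresh tissue it took the called partners of the hemidesmosome to 6, losing COL7A1 (adjusted p = 0.0696), FERMT1 (0.0614) and ERBIN (0.054). Every culture number but 3 correlated best with its own fresh number. In the comparison between the cultures, 26 values of the 9 genes under the 21 alternatives changed sign, none of them called. Isoforms, transcript length and overlapping genes on opposite strands could not be resolved from counts per gene.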
